A study of Rattus norvegicus with 50 samples.

Results

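The interferon response genes were 39 genes listed by symbol, all known to be induced by or to carry out the response: RNA sensors, STAT2 and interferon regulatory factors, antiviral effectors, the ubiquitin-like Isg15 system, Cxcr3 chemokines, guanylate-binding proteins and antigen-processing genes. Each was taken by its gene symbol and, where several probes carried it, by the probe with the highest mean. The array table held 37 of the 39, out of 14506 genes with a symbol of their own; Xaf1 and Parp14 had no probe named in the table used and were not analysed here. The question was whether the rise of Rsad2 under erythropoietin was shared by the other interferon genes, so Rsad2 is described without a test under erythropoietin, and the counts of genes in the EPO comparisons are over the other 36. RNA was measured in liver punches from the median lobe of male Sprague Dawley rats on Affymetrix Rat Gene 1.0 ST arrays, with 1 array per animal and 5 animals in each of 10 groups. In 9 groups the rats had a brain injury made by controlled cortical impact (CCI), a piston strike on the exposed cortex. After the injury they received erythropoietin (EPO, the hormone that drives red cell production) at 2500 IU/kg, anakinra (a recombinant interleukin-1 receptor antagonist) at 100 mg/kg, or saline vehicle, and livers were taken at 24 h, 72 h or 7 days. The other group was intact sham rats, for which no time and no vehicle are given. The dosing schedule is not given in the sources used here. All values below are log2 expression levels or log2 differences, and a difference of 1 is a doubling.

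Interferons are secreted when a cell detects foreign or misplaced nucleic acid. They bind surface receptors, whose kinases phosphorylate STAT proteins. STAT2 and IRF9 are parts of the factor ISGF3, which moves to the nucleus and binds the interferon-stimulated response element in promoters. The genes it turns on act against viruses directly, raise the level of the sensors and factors themselves, or draw in and arm lymphocytes. In the liver, hepatocytes, resident macrophages (Kupffer cells), endothelium and lymphocytes can all carry out this response. Rsad2 encodes viperin, a radical SAM enzyme that makes a chain-terminating nucleotide from CTP, and Cmpk2, its neighbour on the opposite strand of rat chromosome 6, encodes a mitochondrial nucleotide kinase. Cmpk2 was not one of the 39 genes and was read as a companion of Rsad2.

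The promoters of the genes the results turn on are printed to show which of them hold the response element. They are RefSeq sequences on GRCr8, covering 250 bases before and 50 bases after the gene start, read 5′ to 3′ along the gene. Capitals mark matches to the element's core, GAAANNGAAA or GAAANGAAA, searched on both strands; matches to the 2 motifs can overlap. Rsad2 (chr6:48788071-48788370, minus strand) and Isg20 (chr1:142239809-142240108, plus strand) are shown as the members with the largest differences between EPO and vehicle at 72 h, Cmpk2 (chr6:48802600-48802899, plus strand) as the neighbour of Rsad2, and Oasl2 (chr12:47383136-47383435, minus strand) as a member with a match whose level did not pass the test under EPO.
Rsad2: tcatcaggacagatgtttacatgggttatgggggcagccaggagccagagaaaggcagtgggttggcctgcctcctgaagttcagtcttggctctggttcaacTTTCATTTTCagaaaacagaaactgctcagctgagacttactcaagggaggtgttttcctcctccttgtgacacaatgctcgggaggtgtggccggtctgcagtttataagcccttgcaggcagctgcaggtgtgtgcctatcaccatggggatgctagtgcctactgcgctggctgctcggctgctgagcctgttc
Cmpk2: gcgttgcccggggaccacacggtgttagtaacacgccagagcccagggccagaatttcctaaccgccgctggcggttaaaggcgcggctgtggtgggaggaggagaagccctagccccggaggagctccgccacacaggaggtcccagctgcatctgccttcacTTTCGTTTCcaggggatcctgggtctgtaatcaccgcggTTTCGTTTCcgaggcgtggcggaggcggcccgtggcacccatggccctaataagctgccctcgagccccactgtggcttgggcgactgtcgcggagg
Isg20: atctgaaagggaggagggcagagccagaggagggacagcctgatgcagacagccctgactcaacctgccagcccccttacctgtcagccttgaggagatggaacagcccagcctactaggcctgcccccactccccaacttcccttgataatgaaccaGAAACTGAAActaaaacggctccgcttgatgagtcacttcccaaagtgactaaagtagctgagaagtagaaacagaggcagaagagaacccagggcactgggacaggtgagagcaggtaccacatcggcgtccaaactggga
Oasl2: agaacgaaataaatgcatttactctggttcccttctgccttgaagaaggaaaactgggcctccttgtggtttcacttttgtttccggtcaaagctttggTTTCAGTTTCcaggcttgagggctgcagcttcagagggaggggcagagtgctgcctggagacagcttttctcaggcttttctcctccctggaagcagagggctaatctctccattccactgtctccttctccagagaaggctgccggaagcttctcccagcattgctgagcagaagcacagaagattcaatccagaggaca

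The match began at base -147 from the gene start in Rsad2, at -92 in Isg20 and at -151 in Oasl2, and Cmpk2 held a match at -86 and another at -47. RefSeq promoters were found for 30 of the 37 genes; Mx2, Oas2, Isg15, Usp18, Ifit1, Dhx58 and Ifit2 had no entry in the table used. GAAANNGAAA was in 18 of the 30 windows, against 3.92% of the 33469 promoters in the table. GAAANGAAA was in 4 of the 30, against 3.5% of all, and either motif was in 19, against 7.05% of all. A match describes these letters in this window and no binding.

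The 50 arrays had medians between 6.66 and 6.89 and standard deviations between 1.99 and 2.16. Of the 5 arrays with the narrowest spread of values, 4 were from vehicle groups. The mean of 10 hepatocyte markers lay between 12.84 and 13.16 on every array. The tests were limma moderated tests from 1 fit over the 10 group means, with p-values adjusted by Benjamini-Hochberg over all 14506 genes; an adjusted p under 0.05 counted as a pass. At each time the EPO comparisons with vehicle, anakinra and sham share the EPO arrays, and every sham comparison uses the same 5 sham arrays.

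Rsad2 was higher in EPO-treated livers at 72 h and 7 days than in every other group. At 24 h its level was 6.99, 6.96, 7.61, 7.23 and 7.35 in EPO-treated livers, against 6.57, 7.26, 6.07, 6.79 and 6.72 in vehicle-treated livers. At 72 h it was 8.73, 9.72, 10.53, 10.71 and 8.77 in EPO-treated livers, against 7.56, 6.91, 6.64, 8.70 and 7.00 in anakinra-treated and 6.34, 6.78, 8.01, 7.45 and 7.99 in vehicle-treated livers. The EPO animals fell into a higher set of 3 and a lower pair, arrays 1 and 5, and that pair stood just above the highest anakinra array. At 7 days the values were 10.40, 9.25, 8.90, 9.61 and 9.64 in EPO-treated livers, against 6.46, 7.54, 6.71, 7.41 and 7.51 in anakinra-treated and 7.97, 7.05, 6.66, 7.46 and 7.26 in vehicle-treated livers. Sham livers lay at 6.48, 7.32, 6.69, 7.31 and 6.95, within the range of the vehicle groups. The groups overlapped at 24 h and were apart at both later times. The EPO minus vehicle difference was 0.55 at 24 h, 2.38 at 72 h (5.19-fold) and 2.28 at 7 days (4.86-fold), each with an SE of 0.34 (n = 5 per group). Against sham it was 2.74 at 72 h (6.69-fold) and 2.61 at 7 days (6.11-fold), and against anakinra 2.33 and 2.44. Rsad2 was singled out for this rise, so these values are a description.

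**Figure D1:**
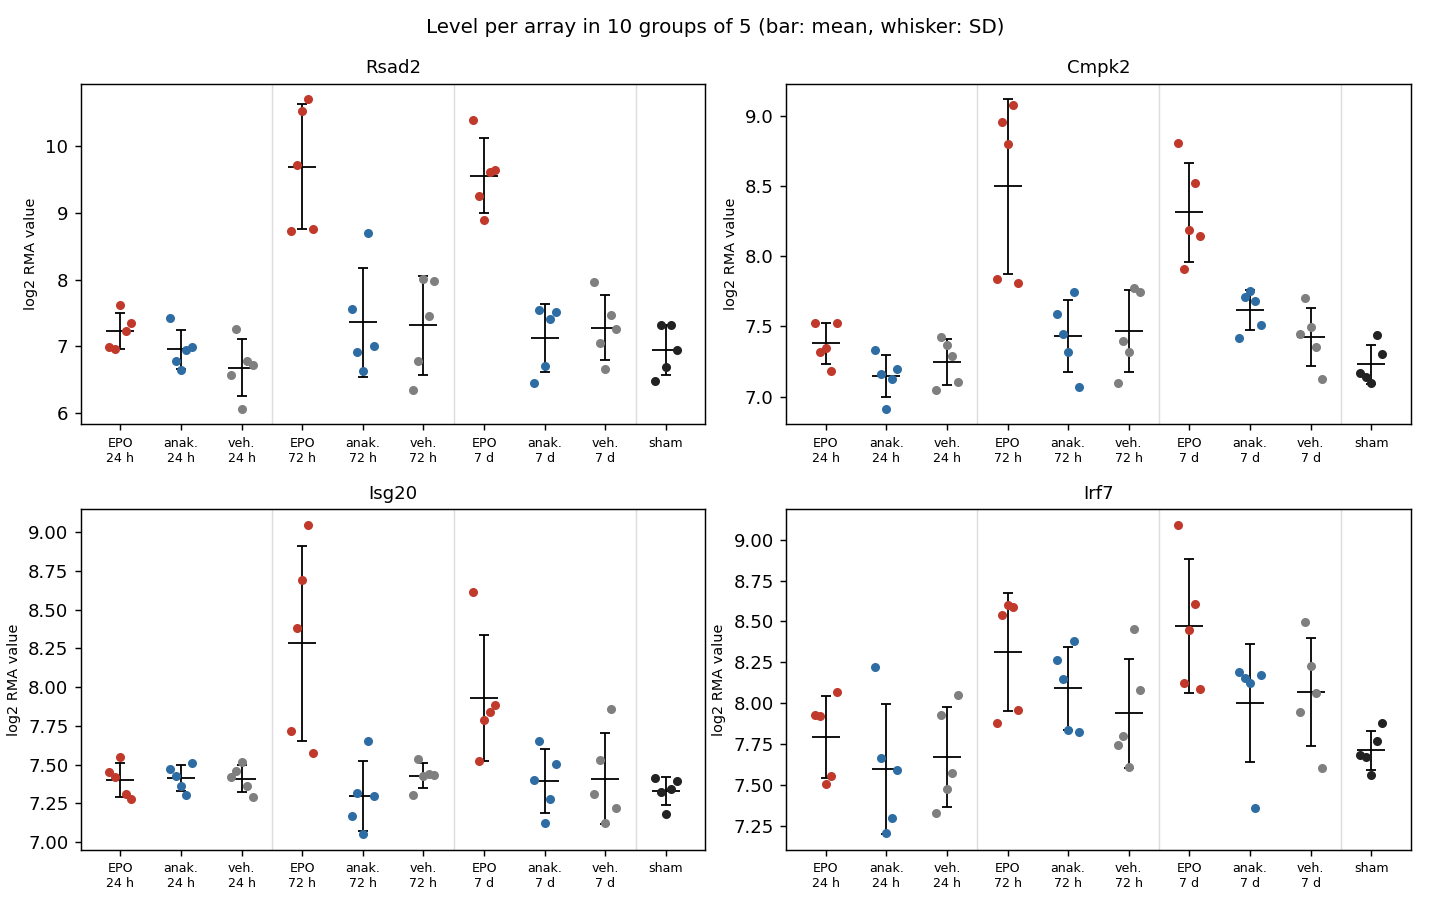
Log2 level (vertical axis) of Rsad2, Cmpk2, Isg20 and Irf7 in each of the 10 groups (horizontal axis); points are arrays, bars are group means and whiskers are SD (n = 5). Rsad2 and Cmpk2 stand above the vehicle arrays in the EPO groups at 72 h and 7 days, Isg20 does so for every EPO array at 72 h only, and Irf7 overlaps vehicle at both times.

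Isg20, which encodes an exonuclease that degrades single-stranded RNA, passed the test between EPO and vehicle at 72 h, and no other of the 36 genes tested passed it at any time. At 72 h its level was 7.72, 8.38, 8.69, 9.05 and 7.57 in EPO-treated livers, against 7.31, 7.54, 7.43, 7.44 and 7.43 in vehicle-treated livers. The groups did not overlap, although EPO array 5 lay just above the highest vehicle array, and arrays 1 and 5 were again the lowest pair. Isg20 rose by 0.85 (SE 0.17, 1.81-fold, limma adjusted p = 0.00113), with a 95% interval of 0.51 to 1.19. A fit on the 10 arrays of these groups alone gave an adjusted p of 0.172; leaving out 1 array at a time kept the difference between 0.66 and 1.03 with an adjusted p of at most 0.0154. Against anakinra at 72 h (7.17, 7.32, 7.05, 7.65 and 7.30) Isg20 was higher by 0.98 (limma adjusted p = 0.000133), with EPO array 5 below the highest anakinra array. The 10 arrays of that comparison alone gave an adjusted p of 0.0839.

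At 24 h Isg20 was 7.40 ± 0.11 in EPO-treated and 7.41 ± 0.09 in vehicle-treated livers (SD, n = 5 each), a difference of -0.01 (SE 0.17). At 7 days it was 8.61, 7.52, 7.79, 7.84 and 7.88 in EPO-treated livers, against 7.31, 7.53, 7.12, 7.86 and 7.22 in vehicle-treated livers. Array 1 of the EPO group was the highest, and only 2 of the 5 EPO arrays lay above every vehicle array. The difference of 0.52 did not pass the test (limma adjusted p = 0.429). Its test over the 3 times, whether the EPO minus vehicle difference changed with time, did not pass either (adjusted p = 0.292).

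Cmpk2 rose under EPO with Rsad2. At 72 h its level was 7.84, 8.95, 8.80, 9.08 and 7.81 in EPO-treated livers, against 7.59, 7.44, 7.32, 7.75 and 7.07 in anakinra-treated and 7.10, 7.40, 7.32, 7.78 and 7.75 in vehicle-treated livers. At 7 days it was 8.81, 7.91, 8.19, 8.52 and 8.14 in EPO-treated livers, against 7.42, 7.71, 7.76, 7.68 and 7.51 in anakinra-treated and 7.44, 7.70, 7.50, 7.35 and 7.13 in vehicle-treated livers. Every EPO array was above every vehicle and anakinra array at both times, and arrays 1 and 5 were the lowest EPO pair at 72 h, as they were for Rsad2 and Isg20. The EPO minus vehicle difference was 0.13 at 24 h (limma adjusted p = 0.73), 1.03 at 72 h (SE 0.17, 2.04-fold, adjusted p = 9.49e-05) and 0.89 at 7 days (1.85-fold, adjusted p = 0.00252). The 72 h call was lost in a fit on those 10 arrays alone (adjusted p = 0.106), and the 7-day call was kept in every alternative tried. Against anakinra Cmpk2 rose by 1.06 at 72 h (limma adjusted p = 4.93e-05, and 0.0629 from those 10 arrays alone). At 7 days it rose by 0.70 (adjusted p = 0.0457), a call kept without EPO array 2 and lost without any other single array of the comparison (0.58 to 0.74, adjusted p up to 0.261).

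Apart from Isg20, none of the 36 genes passed between EPO and vehicle, while most had a difference above 0. At 24 h none of the 36 genes passed (0.0276% of all genes tested did), and at an unadjusted p under 0.05 there was 1, Ifi44l (10.8% of all genes). At 72 h 1 of 36 passed, Isg20, which is 2.78% of them against 2.72% of all genes and so near that background. At 7 days 0 of 36 passed (limma), against 0.365% of all genes. At an unadjusted p under 0.05, 4 of 36 were higher at 72 h and 5 at 7 days, which is 11.1% and 13.9% of the genes, against 7.22% and 2.61% of all genes. Differences above 0 were found in 27, 31 and 25 of the 36 at 24 h, 72 h and 7 days, or 75%, 86.1% and 69.4%, against 44%, 44.2% and 48.7% of all genes. All 5 EPO arrays lay above all 5 vehicle arrays for 1 gene at 72 h (Isg20, 2.78% against 1.11% of all genes) and for 1 at 7 days (Ifi44l, 2.78% against 0.662%).

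The median difference of the 37 genes, Rsad2 included, was 0.10, 0.22 and 0.18 at 24 h, 72 h and 7 days, against -0.02, -0.03 and -0.00 over all genes. These medians rest on few arrays. Leaving out 1 array at a time moved the median between 0.04 and 0.17 at 24 h, and by over 1.5 times without EPO array 3 or 4 or vehicle array 3. At 72 h it ran from 0.10 to 0.30, with such a move without EPO array 2 or vehicle array 1 or 3. At 7 days it ran from 0.10 to 0.26, with such a move without EPO array 5 or vehicle array 1, 4 or 5. With array weights the 24 h median was 0.02 and with median centring 0.16.

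**Figure D2:**
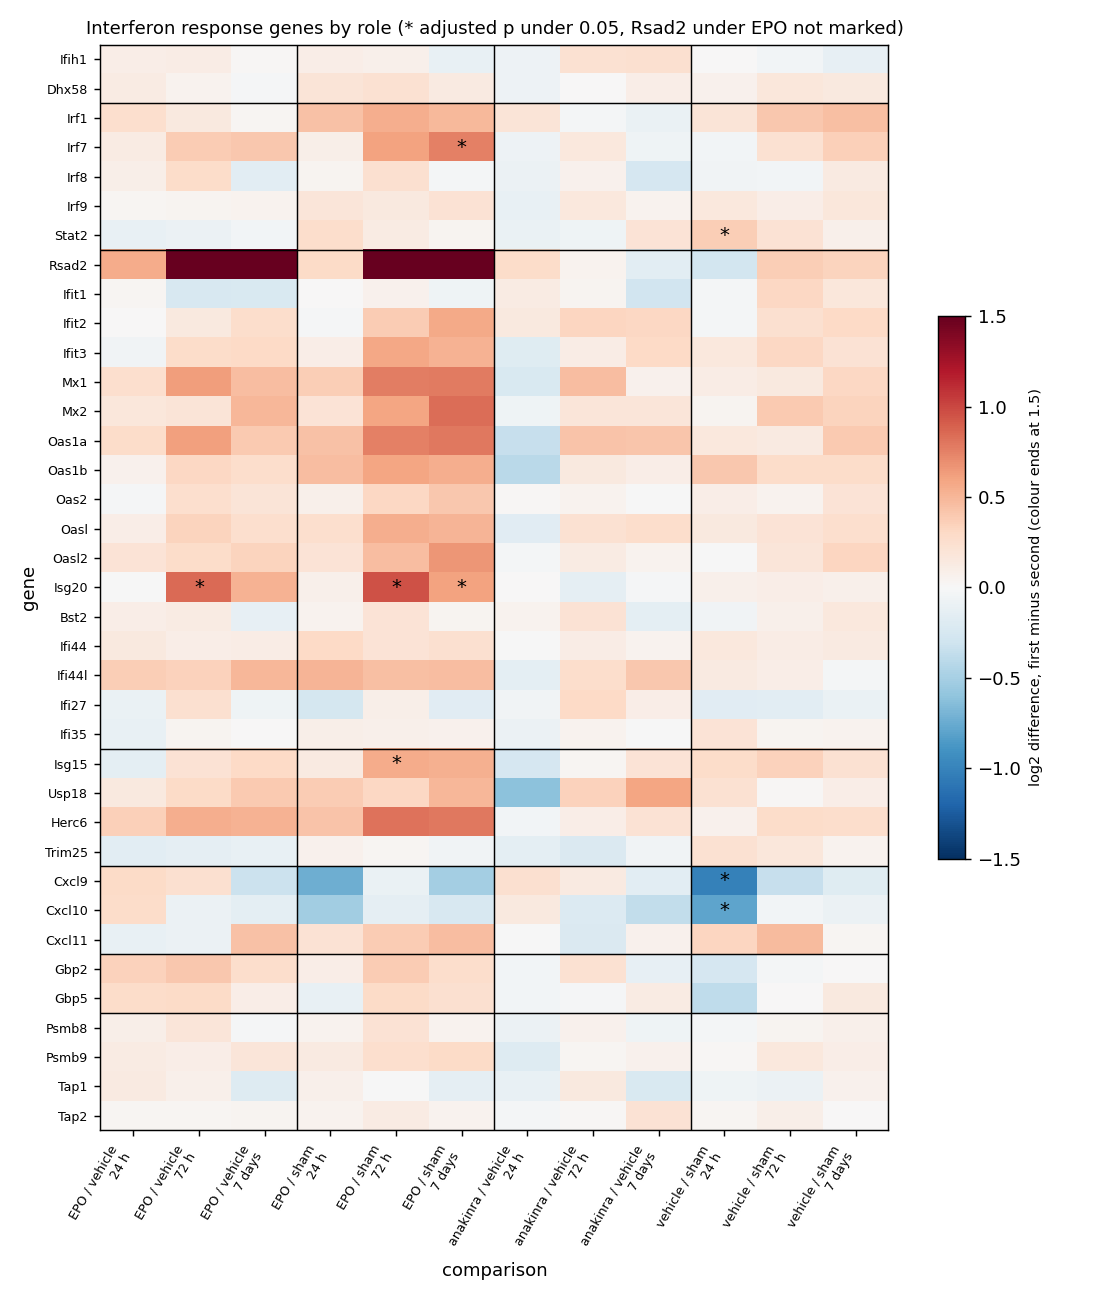
Log2 difference (colour, ends at 1.5 in either direction) of each of the 37 genes (rows, grouped by role) in EPO against vehicle, EPO against sham, anakinra against vehicle and vehicle against sham at 24 h, 72 h and 7 days (columns); a star marks an adjusted p under 0.05, and Rsad2 is not starred under EPO. Rsad2 reaches 2.38 in EPO against vehicle, Isg20 is the only gene starred there, and the chemokines Cxcl9 and Cxcl10 are starred as lower in vehicle against sham at 24 h.

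By role, the 2 RNA sensors Ifih1 (MDA5) and Dhx58 (LGP2) differed between EPO and vehicle by 0.06 to 0.11 at 72 h and by -0.01 to 0.02 at 7 days. STAT2 and the 4 interferon regulatory factors spanned -0.09 to 0.38 at 72 h, with Irf7, the factor that amplifies interferon production, at the top. Irf7 was 7.88, 8.54, 8.60, 8.59 and 7.96 in EPO-treated livers at 72 h, against 7.74, 7.80, 7.61, 8.45 and 8.08 in vehicle-treated livers. Those groups overlap, and the difference of 0.38 did not pass (limma adjusted p = 0.265). Irf8, a factor of macrophage and dendritic cell development, was 8.16, 8.63, 8.28, 8.28 and 8.42 in EPO-treated livers at 72 h, against 8.04, 8.11, 7.97, 8.09 and 8.17 in vehicle-treated livers. EPO array 1 was the only one inside the vehicle range, and the difference of 0.28 did not pass (SE 0.09, adjusted p = 0.102). It passed with each array centred on its median (0.34, adjusted p = 0.0427) and without EPO array 1 (0.33, adjusted p = 0.0305). Irf1, an early interferon-gamma target, differed by 0.25 at 24 h (adjusted p = 0.546).

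The 17 antiviral effectors, Rsad2 included, spanned -0.24 to 2.38 at 72 h with a median of 0.27, and 16 of them were above 0. Rsad2, singled out for its rise, was the top at 72 h and 7 days and is in the counts above 0. The highest of the others at 72 h was Isg20, at 0.85. At 7 days they spanned -0.23 to 2.28, again with a median of 0.27, and 14 were above 0. Mx1, a GTPase that traps viral nucleocapsids, was 7.25, 8.34, 7.71, 8.01 and 7.34 in EPO-treated livers at 72 h, against 6.53, 6.58, 6.68, 8.18 and 7.56 in vehicle-treated livers. Vehicle array 4 lay above 4 of the 5 EPO arrays, and the difference of 0.63 did not pass (SE 0.30, limma adjusted p = 0.230). Oas1a, which makes the oligoadenylate that activates RNase L, was 8.58, 9.80, 8.69, 8.87 and 8.61 in EPO-treated livers at 72 h, against 7.45, 8.22, 7.83, 9.16 and 8.81 in vehicle-treated livers. EPO array 2 and vehicle array 4 were the high arrays here, and the difference was 0.62 (adjusted p = 0.255). Oasl2, an oligoadenylate synthetase-like gene whose promoter is printed above, differed by 0.28 at 72 h (SE 0.23, adjusted p = 0.488). Among the genes of the 37 that did not pass at 72 h, the highest upper end of a 95% interval was 1.25, for Oas1a. Ifi44l, an interferon-induced gene related to Ifi44, was 7.77, 7.76, 7.89, 8.21 and 7.73 in EPO-treated livers at 7 days, against 7.62, 7.58, 7.41, 6.82 and 7.45 in vehicle-treated livers. Every EPO array was above every vehicle array, by a narrow gap and with vehicle array 4 far below the rest, and the difference of 0.50 did not pass (adjusted p = 0.649). Ifit1, an RNA-binding effector, had a dim probe at 4.67 on average, in the 7.64th percentile of all genes, so a change in it would be hard to see.

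The 4 genes of the ubiquitin-like system spanned -0.13 to 0.55 at 72 h and -0.12 to 0.52 at 7 days. At the top was Herc6, which in mouse is the ligase that joins Isg15 to its targets, at 8.18 ± 0.38 in EPO-treated and 7.63 ± 0.52 in vehicle-treated livers at 72 h (SD, n = 5 each; limma adjusted p = 0.220). Trim25, a ligase that activates the sensor RIG-I, was at the bottom at 72 h and differed by -0.16 at 24 h (adjusted p = 0.479). The chemokines Cxcl9, Cxcl10 and Cxcl11, which draw T cells through the receptor Cxcr3, spanned -0.09 to 0.24 at 72 h and -0.32 to 0.44 at 7 days. The highest, Cxcl11 at 7 days, did not pass (adjusted p = 0.856). The guanylate-binding proteins Gbp2 and Gbp5, which coat and break open vacuoles that hold microbes, differed by 0.29 to 0.40 at 72 h and by 0.10 to 0.26 at 7 days. The immunoproteasome subunits Psmb8 and Psmb9 and the peptide transporter genes Tap1 and Tap2 differed by 0.04 to 0.18 at 72 h and by -0.19 to 0.18 at 7 days.

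The mean of the 36 genes other than Rsad2 was 8.05 ± 0.17, 8.26 ± 0.20 and 8.22 ± 0.14 in EPO-treated livers at 24 h, 72 h and 7 days (SD, n = 5 each). It was 7.87 ± 0.20, 8.16 ± 0.16 and 8.14 ± 0.25 with anakinra, 7.95 ± 0.16, 8.06 ± 0.29 and 8.07 ± 0.22 with vehicle, and 7.93 ± 0.20 in sham livers. At 72 h the EPO arrays ran from 8.04 to 8.58 and the vehicle arrays from 7.78 to 8.48, so the groups overlapped through most of their range.

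**Figure D3:**
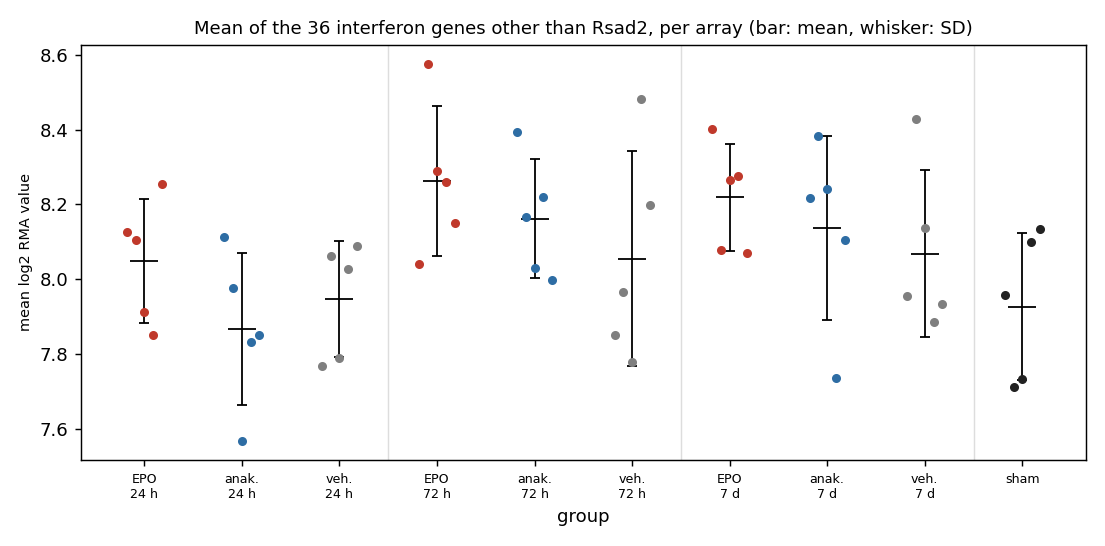
Mean log2 level of the 36 interferon genes other than Rsad2 on each array (vertical axis) by group (horizontal axis); points are arrays, bars are group means and whiskers are SD (n = 5). The EPO arrays at 72 h run from 8.04 to 8.58 and the vehicle arrays from 7.78 to 8.48.

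Markers of red cell precursors moved with Rsad2. Of 15 such genes listed, 12 were measured: Alox15, Ahsp, Slc4a1, Hemgn, Rhag, Rhd, Alas2, Epb42, Klf1, Gata1, Tfrc and Trim10. The dimmest of them, Rhag, averaged 5.38. Against vehicle, 0, 11 and 9 of the 12 passed the test as higher under EPO at 24 h, 72 h and 7 days. Over all genes 0.0276%, 2.72% and 0.365% passed. The median differences of the 12 markers were 0.09, 1.97 and 1.73. Their mean was 8.67, 9.38, 9.79, 10.26 and 8.82 on the EPO arrays at 72 h, against 7.30, 6.84, 6.51, 8.42 and 7.10 with anakinra and 6.89, 6.82, 8.06, 7.35 and 7.93 with vehicle. EPO arrays 1 and 5 were the lowest of their group in this mean, anakinra array 4 was the highest of its group and vehicle arrays 3 and 5 were the highest of theirs, the same arrays that stood out for Rsad2. At 7 days the mean was 9.73, 8.73, 8.65, 8.91 and 9.09 with EPO, against 7.58, 6.82, 7.10, 7.51 and 7.11 with vehicle, and EPO array 1 was the highest in the mean, in Rsad2, in Cmpk2 and in Isg20. The part of these markers in the Rsad2, Cmpk2 and Isg20 differences was not tested. In bulk tissue, more cells of a type and more RNA per cell cannot be told apart.

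The genes whose pattern was most like that of Rsad2 over the 50 arrays were Rhd (r = 0.98), Cdr2, Mkrn1, Slc4a1 and Ucp2, followed by Emb (0.97), Hemgn (0.97) and Ahsp (0.96). These arrays share the 10 groups, so the coefficients are descriptions. Rhd encodes a Rh blood group protein, Slc4a1 the band 3 anion exchanger, and Ahsp a chaperone of alpha-globin, and 4 of the 8 (Rhd, Slc4a1, Hemgn and Ahsp) are on the red cell list above. The interferon genes most like it were Isg20 (r = 0.83, rank 56 of 14505), Irf7 (0.65, rank 170), Herc6 (0.53), Gbp2 (0.51) and Mx1 (0.51), and Cmpk2 had 0.89 (rank 31). The median correlation with Rsad2 was 0.31 over the 36 interferon genes, 0.94 over the 12 red cell markers (0.68 to 0.98) and -0.06 over all genes. Rsad2 followed the red cell mean at r = 0.98 over 50 arrays, at 0.91 over the 40 arrays outside the 2 late EPO groups, and at 0.93 once each group's mean was removed. For the mean of the other 36 interferon genes the same 3 values were 0.47, 0.26 and 0.21. The mean of those 36 genes had an r of 0.39, 0.01 and 0.03 with the red cell mean, 0.61, 0.52 and 0.58 with the Kupffer cell mean, and 0.63, 0.50 and 0.57 with the lymphocyte and NK cell mean. Rsad2 itself had 0.71, 0.49 and 0.48 with the Kupffer cell mean. With the lymphocyte and NK cell mean it had 0.56, 0.33 and 0.32, and with the endothelial mean 0.63, 0.33 and 0.32. Isg20 had 0.85, 0.39 and 0.65 against the red cell mean. Against the mean of the 36 genes, which includes Isg20, it had 0.42, 0.06 and 0.24. The gene most like Isg20 over the 50 arrays was Sptb (r = 0.92), and the red cell markers Epb42 and Klf1 had 0.91. The listed interferon genes most like it were Rsad2 (0.83, rank 46) and Irf7 (0.60, rank 192).

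**Figure D4:**
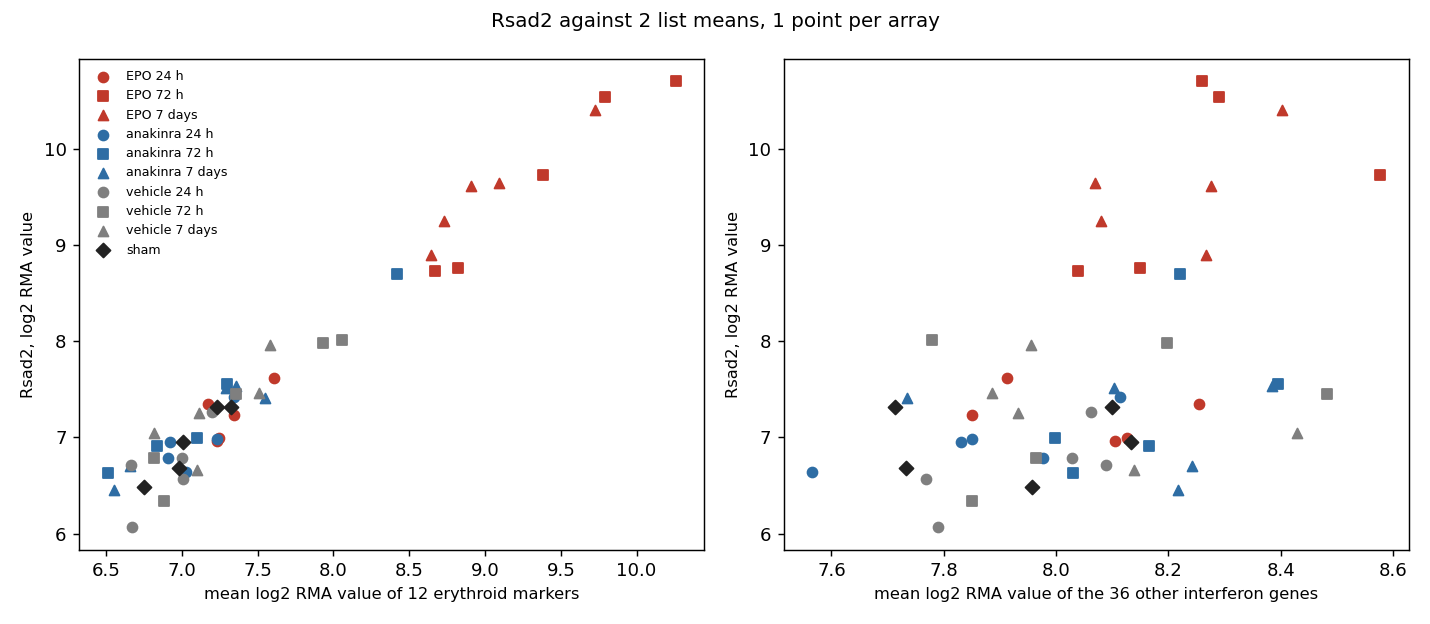
Log2 level of Rsad2 on each of the 50 arrays (vertical axis) against the mean log2 level of the 12 red cell markers (left, horizontal axis) and of the 36 other interferon genes (right, horizontal axis); each point is an array, coloured by treatment. The points follow a narrow line on the left (r = 0.98) and a wide cloud on the right (r = 0.47).

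Other marker lists differed between EPO and vehicle at 72 h too. Passing as higher under EPO were 9 of 12 Kupffer cell markers (median 0.63), 5 of 11 neutrophil markers (median 0.71), 2 of 15 lymphocyte and NK cell markers and 3 of 7 endothelial markers. None of the 8 monocyte and dendritic cell markers or the 10 hepatocyte markers passed, and 2.72% of all genes did. At 7 days no marker outside the red cell list passed. The Kupffer cell mean ran from 9.31 to 9.56 on EPO arrays at 72 h, from 8.41 to 9.22 on vehicle arrays and from 8.89 to 9.28 on sham arrays, so the EPO arrays stood apart from both. The part of these cells in the differences of the interferon genes was not tested.

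Against sham the picture was wider. At 24 h none of the 36 genes passed (0.434% of all genes did), with 6 at an unadjusted p under 0.05 (5.99% of all genes). Of these, Ifi44, Ifi44l, Irf1 and Stat2 were higher and Cxcl9 and Cxcl10 were lower with EPO. At 72 h 2 of 36 passed, Isg20 and Isg15, against 3.46% of all genes, and at 7 days 2 passed, Irf7 and Isg20, against 2.86% of all. At an unadjusted p under 0.05, 17 of 36 were higher at 72 h (47.2%, against 8.44% of all genes) and 16 at 7 days (44.4%, against 7.98%). All 5 EPO arrays were above all 5 sham arrays for 7 genes at 72 h (Isg20, Isg15, Irf7, Ifit3, Mx2, Oas2 and Oasl; 19.4%, against 2.71% of all genes). At 7 days they were so for 6 genes (Isg20, Irf7, Ifit2, Mx1, Mx2 and Oasl; 16.7%, against 2.53%). The median difference of the 36 was 0.10, 0.30 and 0.27 at 24 h, 72 h and 7 days. Over the 37, Rsad2 included, it was 0.10, 0.31 and 0.28, against -0.01, -0.02 and 0.02 over all genes. Leaving out 1 array at a time, it ran from 0.07 to 0.17 at 24 h, with a move of over 1.5 times without EPO array 4 or sham array 3, 4 or 5, from 0.22 to 0.41 at 72 h, and from 0.18 (without sham array 2) to 0.38 at 7 days. Cell markers passed in the same comparison too. At 72 h 12 of 12 red cell, 6 of 11 neutrophil, 4 of 12 Kupffer cell, 3 of 7 endothelial and 1 of 15 lymphocyte and NK cell markers passed as higher with EPO. At 7 days 11 of 12 red cell and 1 of 15 lymphocyte and NK cell markers passed as higher and 1 of 10 hepatocyte markers as lower. Their part in the differences from sham was not tested. EPO and vehicle rats both had the injury and sham rats did not, so these comparisons hold injury and EPO together.

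Isg20 rose against sham by 0.95 at 72 h (limma adjusted p = 0.000184) and by 0.60 at 7 days (adjusted p = 0.0403). The sham arrays were at 7.41, 7.32, 7.18, 7.34 and 7.40, below every EPO array at both times. The 7-day call was lost with each array centred on its median (0.55, adjusted p = 0.0895). It was also lost without EPO array 1 (0.43, adjusted p = 0.144), 3 or 5, or without any single sham array (0.56 to 0.63, adjusted p up to 0.103). Irf7 at 7 days was 9.09, 8.13, 8.45, 8.60 and 8.09 in EPO-treated livers, against 7.68, 7.67, 7.56, 7.77 and 7.88 in sham livers. The groups did not overlap, and Irf7 rose by 0.76 (SE 0.19, adjusted p = 0.0213). The call was lost without EPO array 1 (0.61, adjusted p = 0.0857), sham array 2 (0.75, adjusted p = 0.0561) or sham array 3 (0.72, adjusted p = 0.0638). Isg15, the ubiquitin-like modifier that is joined to newly made proteins, was 7.08, 7.90, 7.40, 7.38 and 7.01 in EPO-treated livers at 72 h, against 6.95, 6.84, 6.43, 6.88 and 6.84 in sham livers. The groups were apart by a narrow gap, and sham array 3 was far below the rest. Isg15 rose by 0.56 (SE 0.16, adjusted p = 0.0396), and the call was lost without EPO array 2 (0.42, adjusted p = 0.247) or sham array 3 (0.47, adjusted p = 0.155). It was lost too without EPO array 3 or 4 or sham array 2, 4 or 5 (0.55 to 0.58, adjusted p up to 0.0727). It was also lost with median centring (adjusted p = 0.0546), with quantile normalization (0.0555) and in a fit of those 10 arrays alone (0.0737).

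Among the genes that did not pass against sham, Ifit3, which binds viral RNA in a complex with Ifit1, was higher by 0.58 at 72 h (7.68 ± 0.33 in EPO-treated and 7.10 ± 0.20 in sham livers, SD, n = 5 each; limma adjusted p = 0.0911). Oasl was higher by 0.54 (adjusted p = 0.0811) and Herc6 by 0.82 (adjusted p = 0.0592) at the same time. At 7 days Mx1 and Mx2, the interferon-induced GTPases, were higher by 0.77 and 0.83 (adjusted p = 0.140 and 0.109). Ifit2 at 7 days averaged 8.55 ± 0.14 in EPO-treated, 8.59 ± 0.23 in anakinra-treated, 8.28 ± 0.36 in vehicle-treated and 7.98 ± 0.27 in sham livers, with the anakinra mean the highest of the 4.

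Against anakinra, no gene of the 36 passed at 24 h (0.0207% of all genes did), with 2 at an unadjusted p under 0.05 (1.69% of all genes). Those were Ifi44l, higher by 0.52 with EPO, and Usp18, the protease that removes Isg15, higher by 0.76. At 72 h 1 of 36 passed, Isg20 (1.94% of all genes did), and at 7 days 0 of 36 (0.441% of all genes). At an unadjusted p under 0.05 there were 2 of 36 at 72 h and 4 at 7 days, against 9.95% and 6.58% of all genes. Of the 4 at 7 days, Cxcl11, Irf7 and Isg20 were higher and Stat2 was lower with EPO. Of the red cell markers 11 of 12 at 72 h and 9 of 12 at 7 days passed as higher with EPO than with anakinra. The median difference of the 36 was 0.16, 0.10 and 0.05 at 24 h, 72 h and 7 days. Over the 37, Rsad2 included, it was 0.17, 0.11 and 0.05.

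Anakinra against vehicle gave no call among the 37 genes at any time (limma, adjusted p under 0.05), where 0%, 0% and 0.0138% of all genes passed. At an unadjusted p under 0.05 there were 0, 1 and 4 genes at 24 h, 72 h and 7 days, against 4.25%, 10.7% and 7.62% of all genes. At 72 h it was Trim25, at 10.80 ± 0.08 in anakinra-treated and 11.02 ± 0.14 in vehicle-treated livers (SD, n = 5 each), with all 5 anakinra arrays below all 5 vehicle arrays (0.862% of all genes). At 7 days Ifi44l, Stat2 and Tap2 were higher and Irf8 was lower with anakinra. The numbers of genes with a difference above 0 were 9, 30 and 22 of 37 at 24 h, 72 h and 7 days, against 44.3%, 42.8% and 42% of all genes, and the medians were -0.07, 0.11 and 0.06, against -0.02, -0.03 and -0.02 over all genes.

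Vehicle against sham held the injury and the saline without a drug. At 24 h 3 of the 37 genes passed, Cxcl9 and Cxcl10 lower and Stat2 higher, against 0.827% of all genes. At 72 h and 7 days none of the 37 passed, and 0% of all genes did (limma); at an unadjusted p under 0.05 there were 4 at 72 h (Cxcl11, Irf1, Isg15 and Stat2, against 12.1% of all genes) and 1 at 7 days (Irf1, against 6.52%). The median difference was 0.07, 0.13 and 0.14, against 0.04, 0.04 and 0.02 over all genes. Differences above 0 were found in 23, 30 and 32 of the 37 at 24 h, 72 h and 7 days. Those are 62.2%, 81.1% and 86.5%, against 58%, 59.5% and 55.5% of all genes, so most were above 0 without EPO too.

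Cxcl9 at 24 h was 7.99, 8.19, 7.35, 8.22 and 8.28 in vehicle-treated livers, against 9.13, 8.51, 8.68, 9.45 and 9.35 in sham livers. Every vehicle array was below every sham array, and Cxcl9 fell by 1.02 (SE 0.23, limma adjusted p = 0.0161). The call was lost without the 5 narrow arrays (-0.85, adjusted p = 0.0838), without vehicle array 3, the lowest and one of those 5 (-0.85, adjusted p = 0.0992), sham array 4 (-0.91, adjusted p = 0.0606) or sham array 5 (-0.94, adjusted p = 0.0678). EPO-treated livers at 24 h were at 8.36, 8.03, 8.03, 8.54 and 8.49 and were lower than sham by 0.73 without passing (adjusted p = 0.206). Cxcl10 at 24 h was 6.98, 7.89, 7.28, 7.44 and 7.72 in vehicle-treated livers, against 8.05, 7.69, 7.85, 8.72 and 8.96 in sham livers. These groups overlapped, and Cxcl10 fell by 0.79 (SE 0.20, adjusted p = 0.0425). That call was lost without vehicle array 1, 3 or 4 (-0.67 to -0.78, adjusted p from 0.0829 to 0.131) or without sham array 4 or 5, the highest of their group (-0.68 and -0.62, adjusted p = 0.132 and 0.210). Stat2, a subunit of ISGF3, was 10.24, 10.16, 10.20, 10.30 and 10.40 in vehicle-treated livers at 24 h, against 9.96, 9.87, 9.90, 9.93 and 9.78 in sham livers. The groups were apart, and Stat2 rose by 0.37 (SE 0.09, adjusted p = 0.0364). The call was lost without vehicle array 3, 4 or 5 or sham array 2, 3, 4 or 5 (0.34 to 0.39, adjusted p up to 0.116) and with each array centred on its median (0.32, adjusted p = 0.148). It was lost as well in a fit on those 10 arrays alone and without the 5 narrow arrays. Stat2 in the EPO groups was 10.15 ± 0.17, 10.02 ± 0.20 and 9.92 ± 0.16 at 24 h, 72 h and 7 days (SD, n = 5 each).

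Over all 10 groups at once, 5 of the 36 genes other than Rsad2 differed in limma's F test: Isg20 (adjusted p = 0.000299), Irf7 (0.0138), Cxcl9 (0.0167), Ifit2 (0.0338) and Cxcl10 (0.0365), against 5.67% of all genes. The tests of whether a difference or a level changed with time passed for none of the 36: EPO against vehicle (0.214% of all genes), anakinra against vehicle (0%) and vehicle alone (0.0689%). At an unadjusted p under 0.05 there were 2, 1 and 3 of the 36, against 8.47%, 2.77% and 5.35% of all genes.

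Other genes of the interferon pathway were taken as a further list of 119 genes, of which 76 were measured. Between EPO and vehicle 0, 3 and 1 of the 76 passed at 24 h, 72 h and 7 days, all higher, against 0.0276%, 2.72% and 0.365% of all genes, and the median difference was 0.07, 0.10 and 0.01. The 3 at 72 h were Cmpk2, the receptor subunit gene Ifnar1 and Lgals3bp, a secreted galectin-3 binding protein. Ifnar1 was higher by 0.26 (SE 0.08, limma adjusted p = 0.0441). The call was lost without EPO array 2, 3, 4 or 5 or vehicle array 1, 2 or 5 (0.20 to 0.29, adjusted p up to 0.281) and in the fit with the replicate number as a block (adjusted p = 0.0516). It was lost as well with trend and robust eBayes options (adjusted p = 0.057), with array weights (0.20, adjusted p = 0.185), with quantile normalization (0.18, adjusted p = 0.121), in a fit on those 10 arrays alone (adjusted p = 0.429) and without the 5 narrow arrays (0.15, adjusted p = 0.498). Lgals3bp was higher by 0.60 (SE 0.16, adjusted p = 0.0266), a call lost without EPO array 2, 3 or 4 or vehicle array 1, 2 or 3 (0.50 to 0.61, adjusted p up to 0.127), with array weights or quantile normalization, in a fit on those 10 arrays alone or without the narrow arrays (adjusted p up to 0.175). Of the genes for the interferons themselves 5 were measured, none passed, and their median difference at 72 h was -0.22. Against sham at 72 h Stat3 (0.53, adjusted p = 0.0207), which carries interleukin-6 signals, the feedback inhibitor Socs3 (0.80, adjusted p = 0.0195), Cmpk2 (1.27, adjusted p = 1.29e-06), Slfn2 (0.58, adjusted p = 0.0106) and Lgals3bp (0.66, adjusted p = 0.00892) were higher with EPO. Of these, Cmpk2 and Lgals3bp passed without any 1 array. Stat3 did not pass without EPO array 2 (0.40, adjusted p = 0.161) or 5, or sham array 2 or 4; Socs3 not without EPO array 5 (0.62, adjusted p = 0.125) or sham array 2, 3 or 4; and Slfn2 not without EPO array 2 (0.50, adjusted p = 0.0733) or sham array 3. At 7 days Cmpk2 was higher than sham by 1.08 (adjusted p = 7.32e-05). Stat3 was also higher than sham at 24 h, by 0.56 with EPO (adjusted p = 0.0494, lost without any 1 of the 10 arrays, 0.50 to 0.62, adjusted p up to 0.233) and by 0.68 with vehicle (SE 0.14, adjusted p = 0.00732, kept without any 1 array).

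Within groups the interferon genes varied together, and Rsad2 and Isg20 did not follow them closely. With each group's mean removed, the 666 pairs of the 37 genes had a median r of 0.342 over the 50 arrays, and 88.0% were above 0; the pairs share their arrays, and the median r of these genes with all genes was -0.03. The deubiquitinase gene Usp18 had the highest median r with the others (0.57), followed by Ifit3 (0.56), Oas1a (0.56), Oasl2 (0.55), Herc6 (0.53) and Isg15 (0.53). Oas1a and Usp18 had an r of 0.91, and Mx1 and Mx2 one of 0.88. At the other end were Isg20 (0.15), Rsad2 (0.10), Tap2 (0.06), Trim25 (0.05) and the dim Ifit1 (-0.10). The closest partner of Rsad2 among the 37 was Isg20 (0.65). The spread between animals of a group was wide in these genes, with a median residual SD of 0.304, against 0.169 over all genes and 0.58 for Rsad2.

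**Figure D5:**
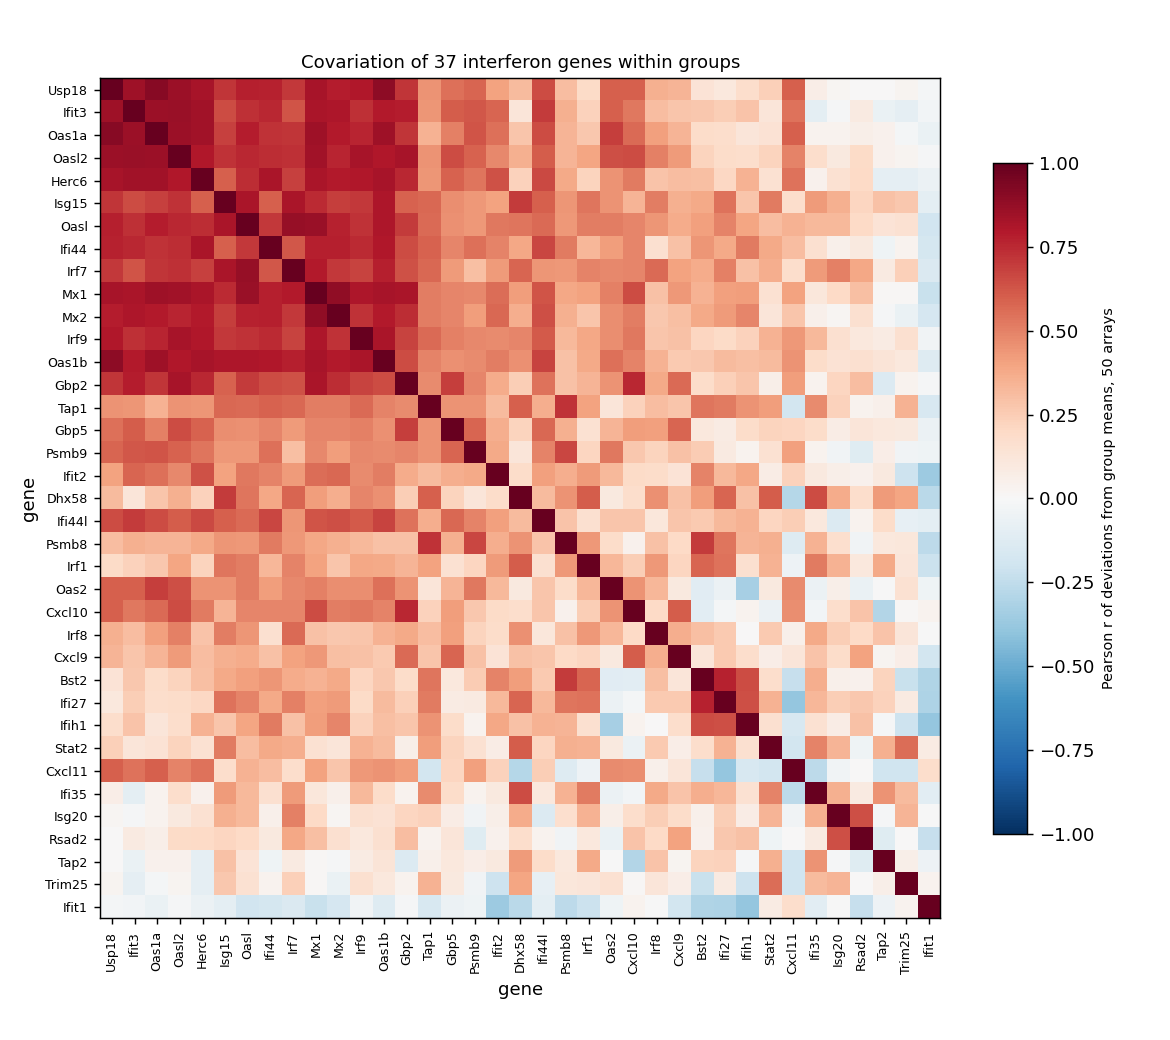
Pearson r between each pair of the 37 interferon genes over the 50 arrays with each group's mean removed (colour), genes in both axes ordered by their median r with the others. Most pairs are above 0, with a median of 0.342, and Rsad2 and Isg20 lie among the genes with the lowest medians.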

How the data were processed

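The authors' deposited table holds log2 expression values for 29214 probes on 50 arrays, made with RMA in the oligo package per the submitters' processing notes, which name no versions. RMA corrects background and equalizes the distributions of all arrays, so a shift shared by most genes can be removed, and small changes are compressed at low levels. The deposited values still differed somewhat between arrays, with medians between 6.66 and 6.89 and standard deviations between 1.99 and 2.16. All 50 columns were used. Of the probes, 15310 carried 1 gene symbol, 323 several and 13581 none; 14506 genes remained, each read by its highest-mean probe, and 527 of them had several. Array number limits precision, and samples are separate animals per the labels.

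Group means were fitted with limma 3.58.1 in R 4.3.3 (40 residual degrees of freedom, eBayes), for 15 comparisons and 4 F tests, with Benjamini-Hochberg adjustment over all genes. The script was tested on simulated data. The genes and lists were chosen with earlier results of these data known. Named here are Rsad2, every listed gene that passed any test, the 5 other listed genes with the smallest p in each EPO against vehicle comparison, Cmpk2, further pathway genes that passed a comparison, the 8 genes and 5 listed genes most like Rsad2, and listed genes with an outlying array in several groups; the others are given by range and count. Alternatives were array weights, median centring, quantile normalization, eBayes options, a filter on low levels, probe means, only the groups compared, the replicate number as a block, and leaving out single arrays or the 5 narrow ones.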

Additional observations from a re-analysis of the deposited data

Results flagged for a closer look

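Within groups of 5, 22 of the 370 gene and group combinations (5.95%) had an array whose gap to the nearest other array was too large a share of the group's range by Dixon's 95% criterion, and chance alone marks about 5%. They touch 16 of the 37 genes. Arrays are given with their log2 level.

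Array 4 of the anakinra group at 7 days was low for Irf7 (7.35), Irf9 (8.71), Oas1b (6.01) and Ifi27 (9.93). In the same group array 2 was high for Gbp2 (7.82) and Gbp5 (8.88), and array 3 was high for Oas2 (7.08). At 72 h EPO array 2 was high for Oas1a (9.80) and Oas2 (7.12), and anakinra array 5 was high for Ifit1 (6.61). Vehicle arrays at 72 h were high for Ifit1 (array 2, 5.80), Isg15 (array 4, 7.82) and Trim25 (array 1, 11.26). At 7 days vehicle array 2 was high for Ifi44 (8.61) and array 4 was low for Ifi44l (6.82). At 24 h EPO array 1 was high for Ifi35 (8.03), anakinra array 1 was high for Ifi27 (10.83), anakinra array 3 was low for Ifi44l (6.96) and Herc6 (6.65), and vehicle array 3 was low for Tap1 (7.87). In the sham group array 4 was high for Ifi44l (7.95) and array 3 was low for Isg15 (6.43).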

How the results depend on the processing

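The 46 single-gene differences were recomputed to give 874 values; 758 kept their direction and their side of the threshold, 107 lost the call, 2 gained one and 7 changed sign. The sign changes were all of Isg20 at 24 h between EPO and vehicle, which was -0.01 and became 0.018 with array weights, 0.050 with median centring, 0.019 without the 5 narrow arrays and -0.044 to 0.024 without single arrays. The counts of the 37 genes past the threshold, Rsad2 included, moved as follows, with the count over all 14506 genes in brackets. With only the groups compared in the fit, the count became 1 for EPO against vehicle (53) and for EPO against anakinra (76) at 72 h, 6 and 12 for EPO against sham at 72 h (302) and 7 days (779), and 1 for vehicle against sham at 24 h (48). With array weights it became 2 for EPO against sham at 24 h (404), 10 at 72 h (1011), 1 for EPO by time (111) and 11 for the 10 groups (2145). Without the 5 narrow arrays it became 3 for the 10 groups (922) and 0 for vehicle against sham at 24 h (79). Without single arrays the counts ran from 2 to 3 for EPO against vehicle at 72 h, from 2 to 7 (7 without EPO array 1) and from 1 to 5 for EPO against sham at 72 h and 7 days (1 without EPO array 1 or sham array 2 or 3, 5 without EPO array 2), from 0 to 3 for vehicle against sham at 24 h (0 without sham array 4 or 5 or vehicle array 3), from 0 to 1 for EPO by time (1 without EPO array 1 or 5 at 72 h) and from 4 to 10 for the 10 groups (10 without anakinra array 4 at 7 days). In these EPO comparisons Rsad2 was the only gene wherever the count was 1 with only the groups compared. It was also the only gene for EPO against sham at 7 days wherever that count was 1. For EPO by time the gene was Rsad2 with array weights or without EPO array 1, and Isg20 without EPO array 5. The causes were not tested. Median centring shifted the median of all genes by -0.058 to 0.062 and quantile normalization by -0.023 to 0.015.

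The replicate numbers were not treated as pairs. Same-numbered arrays correlated from -0.58 to 0.72, and in 0 of 45 pairs of groups were all 5 above 0.1. With 5 arrays per group this cannot exclude a pairing or a shared batch. With the replicate number as a block, the count for the 10 groups became 5, Ifnar1 lost its call (adjusted p = 0.0516), and no other count changed.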
